A study of Homo sapiens with 16 samples.

Results

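This section describes 814 CTCF sites on distal chromosome 17q, of 29064 CTCF sites found on all chromosomes. The sites were obtained by joining overlapping peaks of 4 CTCF ChIP-seq peak lists, and a site was kept when it began at position 40000000 of chromosome 17 or beyond (hg19). The 606 sites of chromosome 17 that began before that position are called proximal, and 27644 sites lay on the other chromosomes. The position was chosen from earlier values of these lists, in which the background under the peaks was higher in G12V than in MCF10A there, so G12V against MCF10A values of the CTCF libraries are given as a description without a test.

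The study compared MCF10A, an immortalised, non-tumorigenic human mammary epithelial cell line, with the same line carrying an HRAS oncogene. The MCF10A libraries came from parental cells. The G12V libraries, labelled H-RAS Gv12, came from MCF10A cells that received G12V HRas together with GFP by lentivirus and were selected with hygromycin. No single clone and no empty-vector control is described, and each library averages over a whole culture. CTCF was precipitated with a commercial anti-CTCF antibody from 2 MCF10A and 2 G12V cultures, and each precipitate was called against its own input. A further 4 libraries, 2 per cell type, were made with the p53 antibody DO-1 after Nutlin-3a, a compound that stabilises p53, in both cell types.

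CTCF recognises a long, asymmetric DNA motif through its zinc fingers and, together with cohesin, anchors chromatin loops and marks the borders of chromatin domains. Many of its sites are occupied in every cell type. An input library is sheared chromatin sequenced without precipitation, so its reads follow the DNA that went into the reaction. The peak caller estimates from it how many reads would cover a summit without binding. The long arm of chromosome 17 carries the HOXB cluster, COL1A1 and many genes of epithelial growth and adhesion.

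CTCF motif letters stood near the summits of these sites. The core searched was CC, 3 free bases, AG, 2 free bases and GGC, on either strand without mismatch, in the 150 bp around the summit. The 10 sequences below are 72 bases of hg19 (GRCh37 assembly) read along the motif strand, with the motif in capitals. They were chosen because they belong to the sites with the highest or lowest background ratio, to the site just outside the dividing position, or to genes of the lists described below, and lie outside annotated UTRs.
P3H4, just outside, chr17:39957977-39958048, minus strand: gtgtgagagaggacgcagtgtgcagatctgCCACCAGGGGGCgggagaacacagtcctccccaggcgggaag
ETV4, chr17:41654151-41654222, plus strand: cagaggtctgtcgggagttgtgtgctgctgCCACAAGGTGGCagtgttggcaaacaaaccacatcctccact
ARHGAP27, low ratio, chr17:43505566-43505637, plus strand: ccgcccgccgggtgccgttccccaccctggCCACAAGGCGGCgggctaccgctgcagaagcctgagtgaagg
HOXB7, chr17:46696078-46696149, minus strand: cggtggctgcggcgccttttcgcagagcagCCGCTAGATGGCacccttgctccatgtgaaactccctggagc
AXIN2, chr17:63552660-63552731, minus strand: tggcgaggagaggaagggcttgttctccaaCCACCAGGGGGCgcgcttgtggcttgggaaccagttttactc
PITPNC1, high ratio, chr17:65370892-65370963, plus strand: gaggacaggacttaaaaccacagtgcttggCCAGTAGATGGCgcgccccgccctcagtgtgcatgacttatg
MRPL38, low ratio, chr17:73901200-73901271, plus strand: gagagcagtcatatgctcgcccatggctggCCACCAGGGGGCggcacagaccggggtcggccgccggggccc
UBE2O, high ratio, chr17:74404813-74404884, minus strand: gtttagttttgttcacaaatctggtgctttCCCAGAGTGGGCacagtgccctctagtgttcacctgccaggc
TIMP2, chr17:76861983-76862054, plus strand: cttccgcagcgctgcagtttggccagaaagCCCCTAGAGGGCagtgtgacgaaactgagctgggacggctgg
CBX8, chr17:77763805-77763876, plus strand: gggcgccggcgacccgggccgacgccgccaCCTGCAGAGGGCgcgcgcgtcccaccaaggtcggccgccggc

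The motif was present at 332 of the 814 distal 17q sites, 40.8% (exact binomial 95% interval 37.4% to 44.3%). Windows of the same length 2000 bp beside the summits held it in 2.95%. At proximal sites the share was 42.7%, and on the other chromosomes 37.7%. The 332 motifs had 129 different letter combinations, of which CCACCAGGGGGC was the most common, at 19 sites. It stood at the P3H4, AXIN2 and MRPL38 sites printed above, which lie on both sides of the dividing position and have both high and low background ratios. All intervals of shares cover counting error only.

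The sites were spread over 41.2 Mb, from chr17:40042047 to chr17:81153776, at 19.8 sites per Mb, against 15.2 per Mb on proximal chromosome 17. The median width was 399 bp. The widest stretch without a site of all 4 libraries measured 2931 kb, between sites nearest to MAP2K6 and SLC39A11. On proximal chromosome 17 the widest such stretch measured 4348 kb. Both densities were taken over the full lengths, with no stretch left out. Promoters (1000 bp upstream to 500 bp downstream of a protein-coding transcription start site, TSS) held 126 sites, 15.5% (13.1% to 18.1%), against 14.2% at proximal sites and 10.6% elsewhere. Of the other sites 310 had their summit in an intron, 67 in an exon and 311 between genes.

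The call patterns of the lists were described next. All 4 libraries listed 283 sites (34.8%, against 27.5% of all CTCF sites), which are called shared. Both G12V libraries and no MCF10A library listed 41 sites (5.04%, 3.64% to 6.77%), called G12V-specific, against 3.33% over all chromosomes and 4.95% (30 of 606) on proximal chromosome 17. Both MCF10A libraries and no G12V library listed 0 of 814 sites, which allows a share of up to 0.452% (exact binomial interval), against 0.261% over all chromosomes and 4 of 606 proximal sites. The remaining 490 sites had mixed patterns.

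Among the mixed patterns, 108 sites (13.3%) were missed only by MCF10A replicate 1, against 8.90% of all CTCF sites. Only G12V replicate 1 missed 45 sites (5.53%), against 9.73% of all sites. G12V replicate 1 alone listed 14 sites, 1.72% against 0.726% over all chromosomes and none of the 606 proximal sites. MCF10A replicate 2 alone listed 8 sites, 0.983% against 3.37%. Sites of G12V replicate 2 alone, the longest list, numbered 191, 23.5% against 25.4%. Sites of both second replicates numbered 111, 13.6% against 19.1%.

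**Figure D1:**
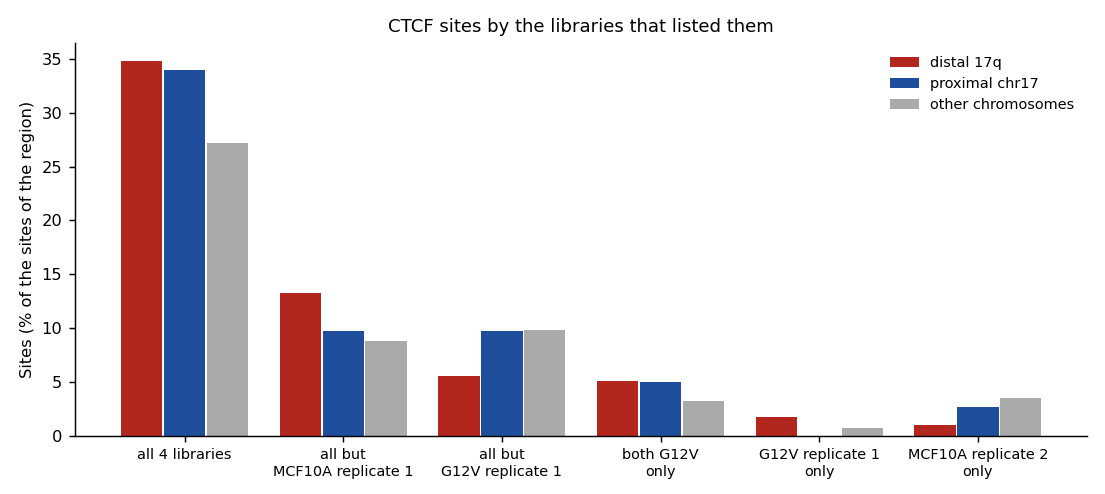
Bars give the percent of the CTCF sites of distal 17q (814 sites), proximal chromosome 17 (606) and the other chromosomes (27644) that were listed by the named combination of libraries. On distal 17q the sites missed only by MCF10A replicate 1 (13.3%) exceeded those missed only by G12V replicate 1 (5.53%), and on the other chromosomes the order was the opposite.

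Each list was also read on its own. Distal 17q held 342 of 11346 peaks (3.01%) in MCF10A replicate 1 and 556 of 20136 (2.76%) in MCF10A replicate 2. It held 454 of 12004 peaks (3.78%) in G12V replicate 1 and 790 of 27678 (2.85%) in G12V replicate 2. The G12V replicate 2 list was the longest, and its share lay between those of the MCF10A lists. When each list was reduced to the 11346 strongest peaks the MCF10A lists held 3.01% and 2.84% there and the G12V lists 3.82% and 3.71%, so that the cell types no longer overlapped.

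The background and the summit pileup of each peak were then taken apart. The fold enrichment in the lists is a ratio of both, with a single read added to each. All values below are the library's mean over the sites divided by its mean over the 7517 shared sites of the other chromosomes, so that 1 is the level elsewhere in the same library. At the 283 shared distal 17q sites the relative background was 0.870 and 0.911 in MCF10A replicates 1 and 2 and 1.26 and 1.23 in G12V replicates 1 and 2. Both MCF10A libraries lay below the level of the other chromosomes there and both G12V libraries above it. The means were 0.890 ± 0.0290 and 1.24 ± 0.0230 (SD, n = 2 each), a 1.39-fold difference.

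With the median over sites in place of the mean, the relative backgrounds were 0.70 and 1.00 in the MCF10A libraries and 1.24 and 1.34 in the G12V libraries, a log2 difference of 0.60. The median takes few values, because the caller's background is often a whole number of reads. On the other chromosomes it was 1.90 reads in MCF10A replicate 1 and 2.00 reads in each of the other libraries. Read at every peak of each list, the medians were 0.875 and 1.00 in MCF10A, against 1.11 and 1.12 in G12V, a log2 difference of 0.24.

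The background differed with the place along the arm rather than at the dividing position itself. Along all shared sites of chromosome 17, the split into 2 stretches that left the least variance in log2 G12V over MCF10A background fell between chr17:44121677-44122073, in an intron nearest to the KANSL1 TSS, and chr17:44859600-44860006, in an intron nearest to the WNT3 TSS. The gap between these sites measured 738 kb. Replicate 1 of G12V over replicate 1 of MCF10A gave the same 2 sites, and so did the replicates numbered 2. The mean log2 difference was 0.01 over the 250 sites before the split and 0.56 over the 239 sites after it (SD over sites 0.70 and 0.62). The split was found in the values it describes, so no test of it is given. Its recurrence by replicate number uses the same libraries and is no support for it.

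The split left 119 of the 814 sites on distal 17q before it and 695 beyond it. At the 44 shared sites before the split the relative background was 0.944 and 0.907 in MCF10A, against 0.942 and 0.968 in G12V, overlapping ranges. At the 206 shared proximal sites it was 0.921 and 0.943 in MCF10A, against 0.915 and 0.924 in G12V. At the 239 shared sites beyond the split it was 0.856 and 0.912 in MCF10A, against 1.32 and 1.27 in G12V, a 1.46-fold difference of the means.

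Beyond the split the difference ran to the end of the arm. In the 72 shared sites up to 50 Mb the relative background was 0.872 and 1.01 in MCF10A, against 1.33 and 1.31 in G12V. Between 50 and 60 Mb (29 sites) it was 0.845 and 0.921 against 1.65 and 1.28. From 60 to 70 Mb (29 sites) it was 0.816 and 0.901 against 1.17 and 1.28, and from 70 Mb on (109 sites) it was 0.860 and 0.849 against 1.25 and 1.24. In each of these 4 stretches both G12V libraries lay above both MCF10A libraries. The value of 1.65 between 50 and 60 Mb came from G12V replicate 1 alone.

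**Figure D2:**
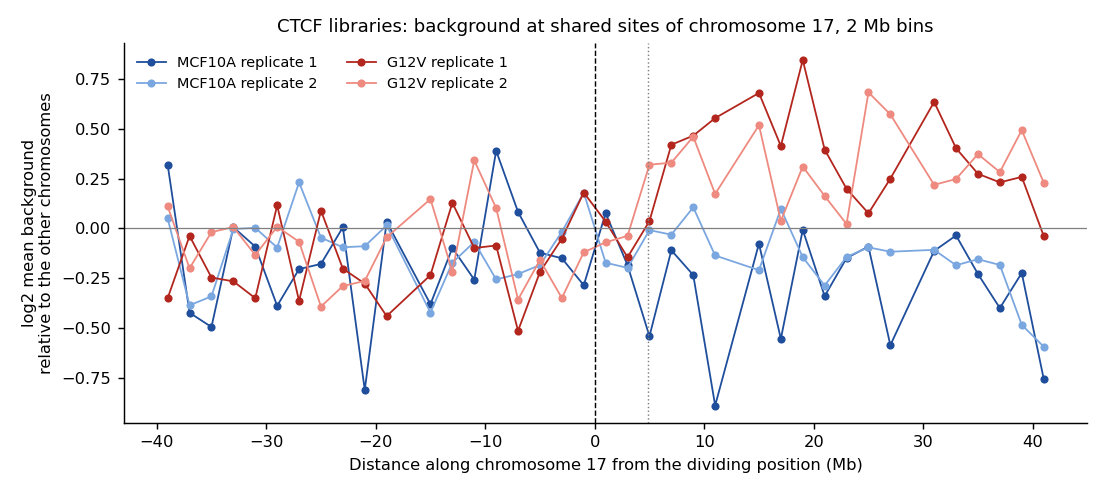
Points give, per library, the log2 of the mean background at shared CTCF sites in 2 Mb bins relative to the other chromosomes, against the distance from the dividing position in Mb, with bins of under 3 sites left out. The dashed line marks the dividing position and the dotted line the first site beyond the split. Up to the dotted line the order of the 4 libraries changes between bins, and in some bins the cell types stand apart in either direction. From 42 to 44 Mb both G12V values (-0.15 and -0.04) lie above both MCF10A values (-0.19 and -0.20). From 32 to 34 Mb they lie below them (-0.51 and -0.36 against 0.08 and -0.23). Beyond the line both G12V values lie above both MCF10A values in each plotted bin except that from 56 to 58 Mb. There MCF10A replicate 2 (0.10) lies above G12V replicate 2 (0.04).

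Converted to input reads, the same solved background gave a difference of similar size. It was expressed as input reads per 10 kb, with values set by a shorter window or the genome-wide rate treated as upper limits. Exact values, set by the 10 kb window, were few beyond the split. They came from 15.9% and 13.0% of the 239 shared sites in MCF10A and from 13.0% and 12.1% in G12V. Beyond the split the median was 48 and 47 reads in MCF10A and 81 and 66 reads in G12V. On the other chromosomes the same medians were 48, 45, 54 and 44 reads, in the same order. Relative to those, both G12V libraries stood at 1.5 and the MCF10A libraries at 1.00 and 1.04. This reading was added after the values were seen.

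The pileup of the precipitated reads over the summits differed in the same direction as the background. At the 283 shared distal 17q sites the relative pileup was 0.962 and 0.933 in MCF10A, against 1.24 and 1.22 in G12V. Beyond the split it was 0.948 and 0.926 in MCF10A, against 1.28 and 1.27 in G12V, and before the split 1.04 and 0.973 against 1.01 and 0.979. The best split of the pileup differences lay somewhat further along, between the COPZ2 site at chr17:46103550-46104118 and the SKAP1 site at chr17:46385154-46385569. Its mean log2 differences were 0.00 before and 0.47 after it, and it was found in the values it describes. The replicates numbered 2 gave the same pair of sites, while those numbered 1 split between sites nearest to HOXB9 (chr17:46748970-46749522) and PRAC1 (chr17:46755555-46756222).

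The fold enrichment did not separate the cell types over all shared distal 17q sites. It divides the pileup by the background after a single read is added to each, so a change in a low background enters it reduced. At the shared distal 17q sites the relative fold enrichment was 1.05 and 0.997 in MCF10A, against 1.04 and 1.04 in G12V. Beyond the split it was 1.04 and 0.987 in MCF10A, against 1.04 and 1.05 in G12V. By stretch the order differed. Up to 50 Mb it was 1.06 and 0.969 in MCF10A, against 0.967 and 1.00 in G12V, and between 50 and 60 Mb 1.11 and 1.08 against 0.958 and 1.10. From 60 to 70 Mb both G12V libraries lay above both MCF10A libraries, at 1.15 and 1.12 against 1.05 and 0.964, and so they did from 70 Mb on, at 1.07 and 1.06 against 1.01 and 0.979. The best split of the fold enrichment differences fell between the TBX2 site at chr17:59494189-59494678 and the MED13 site at chr17:60143311-60143737. The mean log2 difference was -0.01 over the 351 sites before it and 0.11 over the 138 sites after it (SD over sites 0.49 and 0.45). This split, too, was found in the values it describes, so no test of it is given.

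In reads, the median pileup at shared distal 17q sites was 18.8 and 32.3 in MCF10A, against 26.8 and 55.3 in G12V, and the median fold enrichment 7.89 and 10.9 against 7.74 and 15.5, so that the second replicates, with the longer lists, had the higher enrichment in both cell types.

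**Figure D3:**
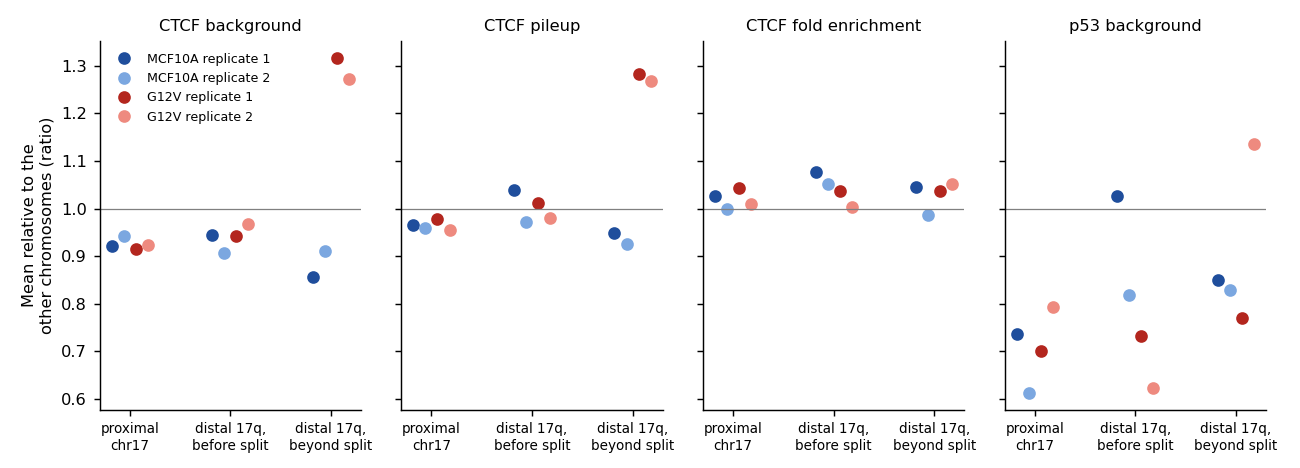
Points give each library's mean background, pileup and fold enrichment at shared CTCF sites, and its mean background over all its p53 peaks, relative to the other chromosomes (grey line at 1), for proximal chromosome 17 and for distal 17q before and beyond the split. The CTCF background and pileup of both G12V libraries stood at 1.27 to 1.32 beyond the split, while the fold enrichment of all 4 libraries lay between 0.987 and 1.05 there. The p53 points before the split rest on 1 to 8 peaks each.

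Single sites were read in the same way. Of the 283 shared distal 17q sites, 119 (42.05%) had a higher relative background in both G12V libraries than in both MCF10A libraries, against 17.2% of all 8006 shared sites, and 17 (6.01%) a lower one, against 16.9%. For the pileup 181 sites (64.0%) were higher in both G12V libraries, against 18.7%, and 14 (4.95%) were lower, against 16.7%. For the fold enrichment 53 sites (18.7%) were higher, against 17.2%, and 48 (16.96%) lower, against 16.2%. Beyond the split the pileup was higher at 170 of 239 sites (71.1%) and lower at 5. These shares use the contrast that chose the place and are no support for it.

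The median log2 G12V over MCF10A ratio of the shared distal 17q sites was 0.55 for the background, 0.40 for the pileup and 0.04 for the fold enrichment. Over all shared sites the medians were 0.02, 0.00 and -0.01. For the background 10% of distal 17q sites lay below -0.33 and 10% above 1.20. For the pileup the same limits were -0.05 and 0.80, so the pileup varied less between sites than the background. The same held over all shared sites, with limits of -0.82 and 0.87 for the background and -0.32 and 0.38 for the pileup.

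**Figure D4:**
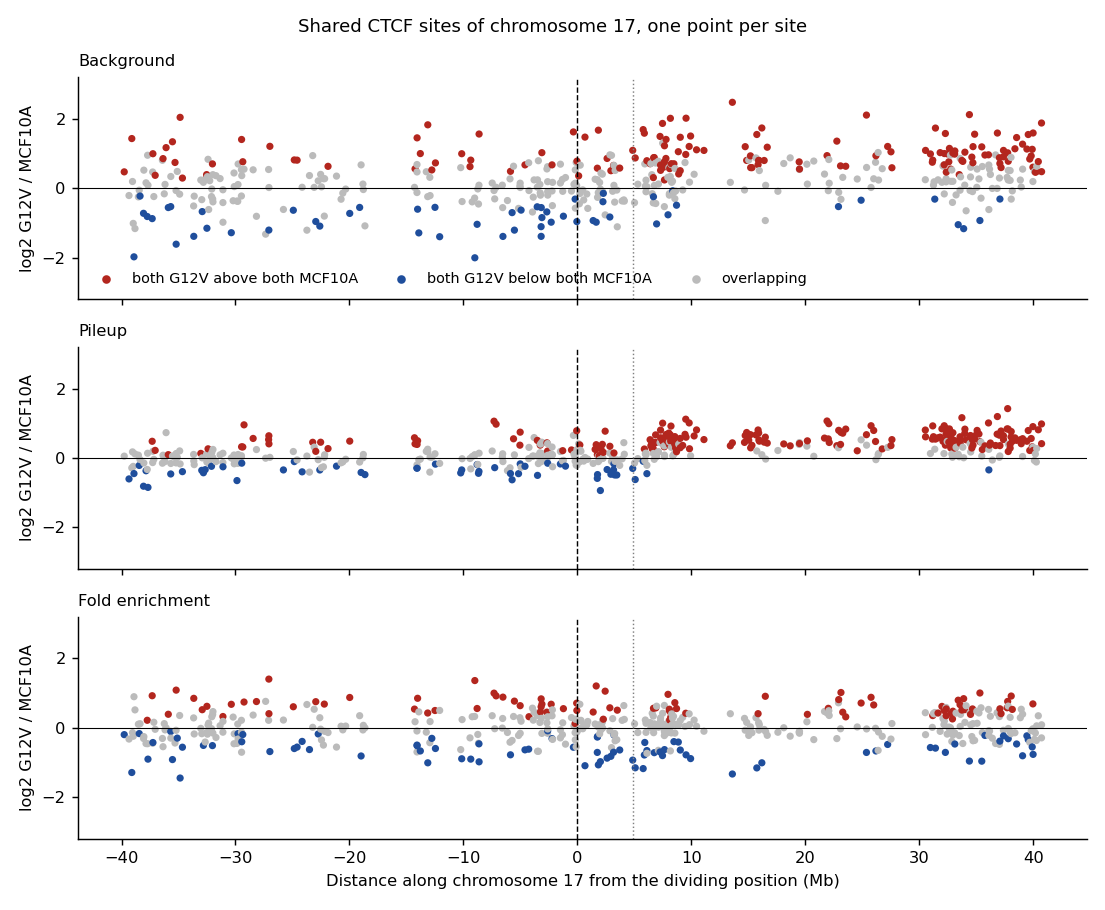
Each point is a shared CTCF site of chromosome 17, with its log2 G12V over MCF10A background, pileup or fold enrichment against the distance from the dividing position in Mb. Red points have both G12V libraries above both MCF10A libraries, blue points below and grey points overlap. Beyond the dotted line, which marks the first site after the split, most pileup points are red (170 of 239, against 18.7% of all shared sites). The fold enrichment points scatter on both sides of 0, with a mean of -0.01 before and 0.11 after the gap between the TBX2 and MED13 sites. That gap was found in these same values.

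Among the sites with the highest background ratios were those nearest to UBE2O and PITPNC1, with log2 ratios of 2.12 and 2.11. At the UBE2O site (chr17:74404575-74405018), in an intron and named for a ubiquitin-conjugating enzyme, the background was 1.14 and 1.20 reads in MCF10A, against 4.0 and 7.0 reads in G12V. Near PITPNC1 (chr17:65370731-65371126), a phosphatidylinositol transfer protein gene, it was 1.12 and 1.00 reads against 3.0 and 7.0 reads. The relative pileups there were higher in both G12V libraries as well, for example 0.727 and 0.837 against 1.19 and 1.30 near PITPNC1.

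The lowest ratios were found near MRPL38, ARHGAP27 and TMEM94, at -1.17, -1.11 and -1.05. MRPL38 encodes a protein of the mitochondrial ribosome, and the site in its promoter (chr17:73901029-73901398) had 4.0 and 3.0 reads of background in MCF10A and 2.00 and 1.36 in G12V. Its relative pileup was 1.11 and 0.891 against 0.970 and 1.03, which overlap. These backgrounds rest on a few input reads each. The MRPL38 and TMEM94 sites lie beyond the split, among the 12 of 239 sites there with a lower background in both G12V libraries. That is 5.02%, against 16.9% of all shared sites.

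The strongest shared sites by rank were nearest to RPTOR, ACBD4 and COL1A1. The RPTOR site (chr17:78549042-78549563), in an intron of the gene of an mTOR complex subunit, had fold enrichments of 18.5 and 26.6 in MCF10A and 15.9 and 20.5 in G12V. Its relative pileups were 2.05 and 1.75 against 2.78 and 2.64, and its relative backgrounds 0.689 and 0.580 against 1.37 and 2.11, both higher in G12V. At the ACBD4 promoter (chr17:43212617-43213016), before the split, fold enrichments were 15.9 and 22.1 against 10.9 and 31.1. At the promoter of COL1A1 (chr17:48277814-48278485), a fibrillar collagen gene, fold enrichments were 10.2 and 20.2 against 11.7 and 38.4. No motif of the searched letters lay in the window of the RPTOR or COL1A1 site.

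The strongest G12V-specific sites were nearest to SMARCD2, GGA3 and TAC4. They ranked 516, 253 and 1515 of 12004 peaks in G12V replicate 1 and 876, 6056 and 7260 of 27678 in replicate 2. The SMARCD2 site (chr17:61934381-61934819) had fold enrichments of 12.3 and 22.8 over backgrounds of 1.67 and 1.72 reads. The GGA3 site (chr17:73236644-73237145), near the gene of a Golgi adaptor protein, had 12.4 and 13.8 over backgrounds of 2.21 and 2.25 reads, and it carried the motif. The TAC4 site (chr17:47921120-47921731), in an intron, had 8.60 and 13.7. The SMARCD2 site, 14191 bp from the TSS and between genes, and the TAC4 site did not carry the motif.

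Over the 41 G12V-specific sites, the median fold enrichment was 5.62 and 8.20 in the G12V libraries, against 6.38 and 8.62 at the 898 G12V-specific sites of the other chromosomes. Their median background was 2.01 and 2.25 reads, against 1.45 and 2.00. The motif was present at 7 of them, 17.1% (7.15% to 32.1%), against 12 of 30 (22.7% to 59.4%) at proximal and 318 of 898 (35.4%, 32.3% to 38.6%) at other G12V-specific sites. At shared sites the share was 52.3% on distal 17q, 53.4% on proximal chromosome 17 and 52.5% elsewhere. Beyond the split lay 35 of the 41 sites and before it 6, which is 5.04% of the sites of either stretch.

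At the dividing position itself the nearest shared sites differed in direction. Just outside, the site between genes near P3H4 (chr17:39957860-39958246) had backgrounds of 3.0 and 4.0 reads in MCF10A and 2.00 and 1.78 in G12V, and the site in the P3H4 promoter 0.95 and 1.59 against 1.61 and 3.0. Just inside, the CNP site (chr17:40114973-40115370) had 1.03 and 1.25 against 1.61 and 1.47, and the ZNF385C site (chr17:40176901-40177300) 3.0 and 1.14 against 1.61 and 1.78. Of these 4 sites 1 was lower in both G12V libraries, 2 were higher and 1 overlapped. Over all shared sites 16.9% were lower and 17.2% higher.

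Genes of the lists were read at the nearest CTCF site within 10 kb of a TSS. Among 6 chromatin genes on distal 17q, 5 had one, and at 2 it was a shared site. At both the background and the pileup were higher in both G12V libraries, as at 42.05% and 64.0% of shared distal 17q sites and 17.2% and 18.7% of all shared sites. CBX8 encodes a subunit of Polycomb repressive complex, and its site (chr17:77763571-77764010) had a pileup of 16.8 and 14.3 reads in MCF10A and 45.7 and 58.1 reads in G12V, with backgrounds of 1.14 and 1.09 against 3.02 and 1.78 reads. Its log2 ratios were 1.42 for pileup, 1.02 for background and 0.76 for fold enrichment, relative to the other chromosomes.

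The promoter site of SMARCD2, a subunit of the SWI/SNF remodelling complex, had log2 ratios of 1.06 for pileup and 0.94 for background. KAT7, a histone acetyltransferase gene, had a G12V-specific site 8748 bp from its TSS. The CBX2 and BPTF promoters had sites of 2 and 3 libraries, and EZH1, which lies before the split, had no site within 10 kb.

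Of 14 signalling and transcription genes, 8 had a site within 10 kb and 3 a shared one. All 3 had a higher pileup in both G12V libraries, against 64.0% of shared distal 17q sites and 18.7% of all, and the background differed in direction between them. The site in an intron of AXIN2, a negative regulator of Wnt signalling, had a pileup of 16.2 and 30.4 reads in MCF10A and 40.7 and 52.5 in G12V, and a background of 2.00 and 2.27 against 4.0 and 3.0 reads. At ETV4, an ETS transcription factor gene before the split, the background was lower, 5.0 and 6.0 against 2.00 and 4.0 reads, with log2 ratios of -0.98 for the background and 0.38 for the pileup. The shared site near MAP3K3 had a log2 pileup ratio of 0.57.

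The genes of 17q23, a segment amplified in some breast tumours, lay between 50 and 60 Mb, where 29 sites were shared. A site lay within 10 kb of 5 of the 13 genes, and it was shared at 1 gene, PPM1D, a phosphatase that acts on p53 and its kinases. Its background was 1.14 and 3.0 reads in MCF10A and 5.0 and 2.68 reads in G12V, which overlap, and its log2 pileup ratio was 0.35. RPS6KB1, CLTC, VMP1, BCAS3, RAD51C, APPBP2, TUBD1 and PTRH2 had none within 10 kb.

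Of 7 adhesion and matrix genes all 7 had a site within 10 kb, 3 of them shared. At TIMP2, an inhibitor of matrix metalloproteinases, the pileup was 14.3 and 23.8 reads in MCF10A and 36.8 and 69.3 in G12V, and the background 1.52 and 1.45 against 1.85 and 8.0 reads. ITGA3 and COL1A1, an integrin and a collagen gene, had log2 pileup ratios of 0.59 and 0.51 and backgrounds that overlapped. Of 6 proliferation and metabolism genes 4 had a site, and the shared one, in the NME2 promoter, had log2 ratios of 0.36 for the pileup and -0.05 for the background. Of 14 proximal genes read for comparison 6 had a site, and the shared one, in the promoter of JUP, a junction protein gene, had 0.78 for the pileup and 0.07 for the background.

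The HOXB cluster (HOXB1 to HOXB9, chr17:46605888-46710934) held 4 CTCF sites, all shared, with a median log2 ratio of 0.03 for the background and 0.34 for the pileup. The pileup was higher in both G12V libraries at 3 of the 4 sites, against 71.1% of the shared sites beyond the split and 18.7% of all shared sites. The background was higher at 2 sites, against 46.4% of the shared sites beyond the split and 17.2% of all shared sites. It was lower in both G12V libraries at the HOXB6 site, relative to the other chromosomes, with log2 ratios of -0.25 for the background and 0.41 for the pileup.

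The same reading was made on all chromosomes in bins of 10 Mb with at least 15 shared sites, of which there were 188. The 4 bins of distal 17q from 40 Mb to 80 Mb ranked 7, 1, 4 and 3 by mean log2 G12V over MCF10A background, at 0.34, 0.74, 0.52 and 0.55. The 180 bins off chromosome 17 ran from -0.36 to 0.68, with a median of 0.00, and the highest of these were the bins of chromosome 9 from 10 to 20 Mb and from 0 to 10 Mb. By pileup the 2 bins of chromosome 9 ranked 2 and 1, at 0.51 and 0.56, and the 4 bins of distal 17q ranked 6, 5, 4 and 3, at 0.21, 0.47, 0.49 and 0.50. By fold enrichment they ranked 132, 168, 9 and 24, at -0.04, -0.08, 0.16 and 0.10. Background and pileup were thus high on distal 17q and on the first 20 Mb of chromosome 9.

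**Figure D5:**
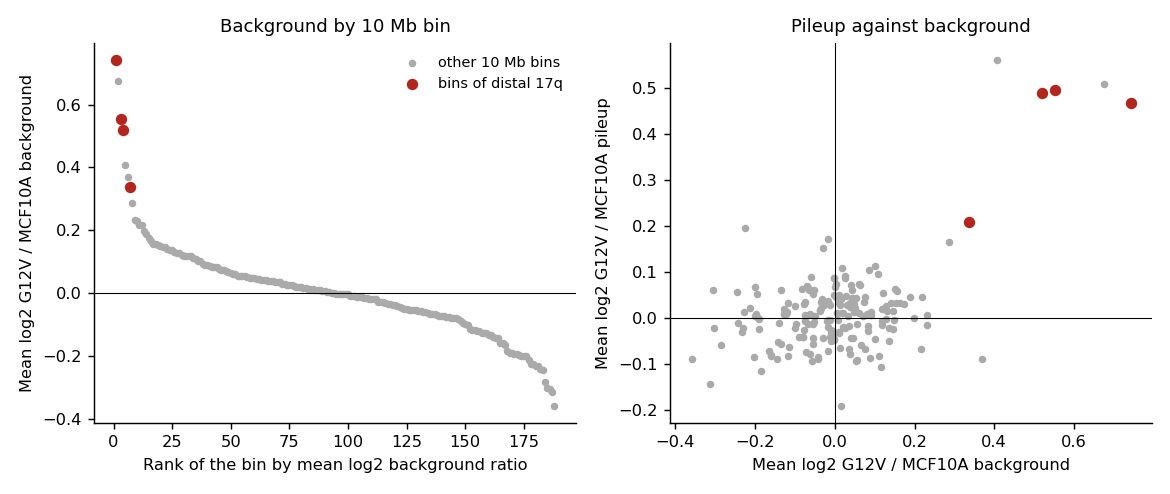
On the left, 188 bins of 10 Mb are ranked by the mean log2 G12V over MCF10A background of their shared CTCF sites, and on the right the mean log2 pileup ratio is plotted against the mean log2 background ratio. The 4 red bins of distal 17q stand at ranks 1, 3, 4 and 7, and the 2 grey bins beside them on the right, with pileup ratios of 0.51 and 0.56, are those of chromosome 9.

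The p53 libraries were not used to choose the place and gave the only test. Their lists held 35, 17, 13 and 77 peaks on distal 17q, in the order MCF10A replicates 1 and 2 and G12V replicates 1 and 2, of 1718, 885, 477 and 2619. Relative to the other chromosomes, the log2 median background at these peaks was 0.00 and 0.37 in MCF10A, against 0.25 and 0.53 in G12V. The ranges overlapped. The difference of the means was 0.20 (two-sided exact permutation test over 4 libraries, p = 0.667, where the smallest possible p is 0.333). Peak names of the G12V replicate 1 list contain the word old, and whether it is the final list is not given in the sources used here. Without it the difference was 0.34 (exact permutation test, p = 0.667).

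With means in place of medians the p53 values were -0.21 and -0.27 in MCF10A, against -0.38 and 0.11 in G12V, a difference of 0.11 (exact permutation test, p = 1). The value of G12V replicate 1 lay below both MCF10A values and that of G12V replicate 2 above them. On proximal chromosome 17 the difference of the medians was 0.29 (exact permutation test, p = 0.333), no smaller than on distal 17q. By medians the CTCF difference was 0.60 at shared sites and 0.24 at every peak of each list, the reading used here for p53. With 13 peaks in the shortest list, neither size could be told from 0 by this test, whose smallest p is above 0.05.

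Distal 17q held 2.04% and 1.92% of the MCF10A p53 peaks and 2.73% and 2.94% of the G12V p53 peaks. On proximal chromosome 17 the shares were 1.75% and 1.69% against 1.47% and 1.37%. The relative mean pileup at distal 17q peaks was 0.930 and 0.987 in MCF10A, against 1.20 and 1.07 in G12V. On proximal chromosome 17, however, the pileup was also higher in G12V, at 0.904 and 0.843 against 1.31 and 1.22. No test of these values is given.

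The p53 peaks of distal 17q formed 81 of 2980 p53 sites. All 4 libraries listed 9 of them (11.1%, as over all chromosomes), both G12V libraries alone 1, with 1.41% over all chromosomes, and both MCF10A libraries alone 2, with 2.18%. The 9 shared sites were nearest to HROB, SPAG9, C17orf67, MSI2, FAM20A, MAP2K6, SEPTIN9, RBFOX3 and RPTOR. The strongest in G12V was near MAP2K6, a p38 MAP kinase kinase gene (chr17:67603195-67603975), with fold enrichments of 28.02 and 10.4 in MCF10A and 39.5 and 49.1 in G12V. Its background was 1.53 and 2.16 reads in MCF10A and 1.48 and 3.6 reads in G12V.

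A p53 peak of any library overlapped 7 of the 814 CTCF sites, 0.860% (0.346% to 1.76%), against 0.313% of all CTCF sites. They were nearest to MAP3K14, PRAC1, NME1, CUEDC1, TBX2, CACNG5 and MAP2K6. The site near MAP2K6 overlapped a p53 peak in all 4 p53 libraries, that near TBX2 in 2 libraries, and the other 5 in G12V replicate 2 alone, which had the longest p53 list.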

How the data were processed

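CTCF and p53 ChIP-seq peak lists of 2 MCF10A and 2 G12V libraries each were analysed, and the inputs entered through the peak caller. The authors aligned reads with Bowtie to hg19, keeping unique matches, and called each precipitate against its own input with MACS2 at a 5% false discovery rate. The deposited lists give a score, a fold enrichment (a ratio), and −log10 p and −log10 q values at the summit. No read counts were used. Summit pileup and local background were solved for each peak from the fold enrichment and −log10 p, as MACS2 computes them. A value pair was found for 100% of peaks, and the solver was tested on simulated data. The background is the largest of the input windows (fragment length, 1 kb, 10 kb) and the genome-wide rate, which narrows differences between regions.

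The calling depth that the backgrounds give, for a mappable genome of 2.7 Gb, was 10.7 to 13.5 M reads in the CTCF and 9.26 to 23.9 M in the p53 libraries. The peak names of p53 G12V replicate 1 contain the word old, unlike those of the other lists, and no source used here says whether that list is the final one. The labels give the CTCF samples the p53 extraction text, and the antibody was taken from their antibody label.

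Peaks overlapping by 1 bp were joined with Python 3.11.15 and pandas 2.3.3. Genes were taken from GENCODE v44 lifted to GRCh37, and no peak lay past a chromosome end. A site is named by the nearest protein-coding TSS. Named were the 3 strongest sites per class, the 2 shared sites on each side of the dividing position, the 3 highest and 3 lowest background ratios, and list genes. Some of the sites and genes these rules name are not reported here. The sites beside the split and p53 sites were named after their values were seen. The members and gene lists were chosen with earlier results of these data known. The p53 background was compared by an exact permutation test over libraries. Nothing says that same-numbered cultures were paired. The p-values rank each difference among the relabellings or sign flips of the libraries, with 2 cultures per cell type. Whether the G12V cultures came from separate transductions is not given.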

Additional observations from a re-analysis of the deposited data

Results flagged for a closer look

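Background and pileup at the shared CTCF sites of distal 17q differed between the cell types relative to the other chromosomes. By means over sites both G12V libraries lay above the level of the other chromosomes and both MCF10A libraries below it. The log2 differences of the means were 0.48 for the background and 0.38 for the pileup. By medians the background of MCF10A replicate 2 stood at 1.00. The mean background at shared proximal sites lay below the level of the other chromosomes in every CTCF library. The difference was not tested, since these libraries chose the place. No group had enough libraries for a check of single libraries that stand apart.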

How the results depend on the processing

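Of 101 alternative values for 17 results, 77 were counted as the same, 23 moved and 1, for p53, turned. CTCF list shares, backgrounds, pileups and fold enrichments were the same within the replicate spread, and counts within 1.5 times. Motif and promoter shares were the same within the binomial interval. The p53 background was counted as the same whenever its sign held, whatever its size. Within the replicate spread the sign also turned for the list share without G12V replicate 1 and for the log2 fold enrichment difference of 0.04, which was -0.033 at every peak and -0.020 without MCF10A replicate 2. The log2 CTCF background difference of 0.60 ran from 0.24 (every peak) to 0.75 (divided at 45 Mb or at the split), was 0.48 with means, 0.42 against proximal chromosome 17 and 0.37 in input reads per 10 kb, and from 0.36 to 0.88 without one library, the lowest without MCF10A replicate 1. The pileup difference of 0.41 was 0.33 at every peak, 0.37 against proximal chromosome 17 and 0.46 beyond the split. The log2 difference in list share of 0.20 ran from -0.02 without G12V replicate 1 to 0.39 without G12V replicate 2. G12V-specific sites numbered 40 with summits within 150 bp, 38 at a −log10 q of at least 5 and 36 in lists of equal length. Without one library they numbered 48 to 232. Without MCF10A replicate 2 they numbered 149, since 1 list fewer had to miss a site. That is 18.5% of distal 17q sites, against 12.7% over all chromosomes. Without G12V replicate 1 they numbered 232, since 1 list fewer had to hold a site. That is 29.0% both on distal 17q and over all chromosomes. MCF10A-specific sites numbered 1 with summits within 150 bp, 4 in equal lists and 0 to 46 without one library, the highest without G12V replicate 2. Their share over all chromosomes was not computed in these settings. Motif shares were 25.9% with A required as the third letter of the core and 44.6% in 300 bp (beside the summits 1.11% and 5.41%), and 36.6% of sites lay within 5000 bp of a TSS.

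The p53 background difference of 0.20 changed direction to -0.083 against proximal chromosome 17 (exact permutation test, p = 1). It was 0.00 at shared p53 sites, 0.23 with −log10 p up to 200 and 0.02 to 0.39 without one library, with exact p from 0.5 to 1 over all alternatives. In equal lists p53 sites on distal 17q numbered 23. Of these 5 were shared, 2 G12V-specific (8.70%, against 9.78% over all chromosomes) and 1 MCF10A-specific. Without one library the ranges were 36 to 81, 9 to 15, 1 to 46 and 2 to 8, with 36 sites in all without G12V replicate 2 and 46 G12V-specific ones without G12V replicate 1.

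No source used here says that same-numbered libraries were paired, but some library properties went with the number. In both cell types the CTCF replicates numbered 2 had longer fragments, longer lists and higher fold enrichment than those numbered 1. For p53 the replicates numbered 1 had the longer fragments in both cell types, and list length did not go with the number. Whether same-numbered libraries shared a batch was not tested. Deviations of same-numbered libraries correlated across shared sites at 0.01 for the CTCF background, 0.16 for the CTCF pileup, 0.05 for the p53 background and -0.05 for the p53 pileup. With the replicate block the log2 differences were 0.62 for the CTCF background, 0.41 for the pileup, 0.04 for the fold enrichment, 0.19 for the list share and 0.20 for the p53 background (exact sign-flip test, p = 0.5, the smallest possible). The cause of these changes was not tested. Backgrounds of single sites rest on a few input reads each. The input reads per 10 kb, the division at the split and the scaling by medians were chosen after seeing the data.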
